A study of Mus musculus with 36 samples.

Results

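Adult red cells carry hemoglobin, and in mouse brain tissue 7 genes tied to its making and use were followed: the beta globins Hbb-bs and Hbb-bt, the alpha globins Hba-a1 and Hba-a2, the heme synthesis gene Alas2, the red cell anion exchanger gene Slc4a1 and the 2,3-bisphosphoglycerate enzyme gene Bpgm. These 7 of 38924 genes in the count tables were chosen by name, and the choice was made on measured values, since their lower level in the brainstem of Hcrt knockout mice was already known. That contrast is therefore given as a description without a test, and nothing is built on it. All 7 were found in the tables of all 36 libraries.

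The study measured messenger RNA by sequencing in hypothalamus, cortex and brainstem of C57BL/6 mice from a pair of models of narcolepsy with cataplexy. Ataxin-3 transgenic mice carry the Hcrt/Orexin-ataxin-3 transgene, in which the promoter of the hypocretin (orexin) gene drives a toxic ataxin-3 fragment that destroys the hypocretin neurons. Hcrt knockout mice carry a knockout of the hypocretin gene itself, though some Hcrt counts remained in their libraries, as given below. Each model was set against wild types of its own line, giving 4 genotype groups with 3 libraries each in every tissue, 12 libraries per tissue. The sources used here do not give age, sex or treatment of the animals, or say whether blood was flushed from the vessels. The labels do not say that the 3 libraries of a group came from separate animals, or which tissues came from the same animal, so p-values measure the spread between these libraries, which may be partly technical.

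Red cells develop in marrow from precursors that make alpha and beta globin chains in near balance and heme to fill them, under transcription factors of the GATA and KLF families. Young red cells leave the marrow as reticulocytes that still hold globin messenger RNA, so tissue taken with blood in its vessels carries these transcripts. Erythroid ALA synthase, the product of Alas2, performs the first step of heme synthesis in red cell precursors, band 3 from Slc4a1 exchanges chloride for bicarbonate and anchors the membrane skeleton, and bisphosphoglycerate mutase from Bpgm makes the small molecule that lowers the oxygen affinity of hemoglobin. Hemoglobin transcripts have also been described in neurons and glia. In bulk tissue, fewer cells of a type and less RNA per cell cannot be told apart.

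The sequences in front of these genes are shown because the globins and Alas2 varied together between libraries, as described further on. RefSeq promoter windows of build GRCm38.p6 matched 6 of the 7 members; for Slc4a1 none is shown. The 250 bases before the RefSeq start were searched on both strands for the GATA factor core AGATAA and its variant form TGATAA, for the KLF factor core CACCC, for the CAAT box core CCAAT and for the TATA box core TATAA, and capitals mark every match. RefSeq starts lie downstream of the GENCODE gene starts given below, so 168 bases of the Hbb-bs window, 73 of Hbb-bt, 161 of Hba-a1, 3 of Hba-a2, 42 of Alas2 and 149 of Bpgm fall inside the GENCODE gene. The windows lie at chr7:103827929-103828178 on the minus strand for Hbb-bs, chr7:103813924-103814173 on the minus strand for Hbb-bt, chr11:32296242-32296491 on the plus strand for Hba-a2 and chrX:150547167-150547416 on the plus strand for Alas2.
Hbb-bs: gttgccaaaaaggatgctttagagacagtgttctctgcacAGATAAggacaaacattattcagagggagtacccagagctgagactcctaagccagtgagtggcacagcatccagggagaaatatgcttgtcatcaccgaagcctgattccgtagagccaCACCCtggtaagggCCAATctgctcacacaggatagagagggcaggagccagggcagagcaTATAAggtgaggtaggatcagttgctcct
Hbb-bt: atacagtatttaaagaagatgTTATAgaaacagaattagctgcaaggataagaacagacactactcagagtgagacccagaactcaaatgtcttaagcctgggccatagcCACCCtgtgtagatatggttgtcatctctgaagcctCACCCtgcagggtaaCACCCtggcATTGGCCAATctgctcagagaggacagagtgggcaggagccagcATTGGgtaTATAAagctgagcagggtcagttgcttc
Hba-a2: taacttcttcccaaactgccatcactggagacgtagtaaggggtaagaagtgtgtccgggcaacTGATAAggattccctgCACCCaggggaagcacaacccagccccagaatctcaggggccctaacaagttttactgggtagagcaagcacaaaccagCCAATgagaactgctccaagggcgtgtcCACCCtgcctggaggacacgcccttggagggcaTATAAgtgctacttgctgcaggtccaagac
Alas2: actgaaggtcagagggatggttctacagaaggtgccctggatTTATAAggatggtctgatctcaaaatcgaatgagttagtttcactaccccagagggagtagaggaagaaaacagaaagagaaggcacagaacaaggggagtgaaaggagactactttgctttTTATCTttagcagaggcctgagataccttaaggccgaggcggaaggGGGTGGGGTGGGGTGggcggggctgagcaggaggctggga

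Both beta globin windows held the KLF core, the CAAT box core and the TATA box core in the same order, with TATAA 29 bases before the start in Hbb-bs and 28 in Hbb-bt. The Hbb-bt window held 3 CACCC, at 140, 104 and 89 bases before the start, against 1 in Hbb-bs, at 90. AGATAA was found once in Hbb-bs, at 210 bases, and in Alas2 on the opposite strand, at 86 bases, where 3 CACCC on the opposite strand also lay. TGATAA was found once in each alpha globin, and the Hba-a1 window (chr11:32283422-32283671, plus strand) shared an unbroken run of 247 bases with that of Hba-a2. The Bpgm window (chr6:34476106-34476355, plus strand) held 3 CCAAT and none of the other 4 motifs. Among all 32851 windows of 250 bases, 9.99% held AGATAA, 7.94% TGATAA, 52.0% CACCC, 33.9% CCAAT and 22.8% TATAA, so single matches of the short motifs are common.

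The copies within each globin pair are nearly the same gene, which limits what the counts can tell. The coding sequences of Hbb-bs (ENSMUSG00000052305, chr7:103826534-103828096, minus strand, build GRCm38 with GENCODE M21 annotation) and Hbb-bt (ENSMUSG00000073940, chr7:103812524-103813996, minus strand) differed at 1 of 444 bases. Those of Hba-a1 (ENSMUSG00000069919, chr11:32283511-32284465, plus strand) and Hba-a2 (ENSMUSG00000069917, chr11:32296489-32297298, plus strand) differed at 1 of 429 bases. Of the 100-base windows in the transcripts, 49.7% of Hbb-bs and 54.8% of Hbb-bt were shared with the partner, and 63.3% of Hba-a1 and 79.5% of Hba-a2. The tables set reads with more than 1 alignment apart, so the globin counts came from the unshared stretches, their levels are too low by an unknown amount, and the split within a pair is uncertain. Alas2 (ENSMUSG00000025270, chrX:150547375-150570638, plus strand) is overlapped on the other strand by Apex2, and the strand setting of the counting is not stated. Slc4a1 (ENSMUSG00000006574, chr11:102348824-102366203, minus strand) and Bpgm (ENSMUSG00000038871, chr6:34476207-34505613, plus strand) shared no 100-base window with another gene. Slc4a1 lies 1.59 Mb from Hcrt (chr11:100761069-100762931), on the chromosome that carries the knockout allele.

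Gene counts per library ran from 21915540 to 47057537. In brainstem ataxin-3-line wild types 1 and 2, reads that fell in no gene feature made up 10.1 and 15.2% of the total. The rest of the brainstem libraries held 6.38 to 7.33% of such reads. Cortex libraries held 10.6 to 13.9% and hypothalamus libraries 6.05 to 7.25%. Levels are given as CPM, that is, counts relative to all gene counts of a library, scaled together over all 36 libraries. Hcrt checked the labels in hypothalamus, with 51.4 to 196 CPM in the 6 wild types, 2.07 to 2.46 in the ataxin-3 transgenic libraries and 0.996 to 1.14 in the knockouts. In cortex and brainstem, where the gene is hardly expressed, knockouts held 0.350 to 0.440 CPM in cortex and 0.885 to 1.29 in brainstem, against 0 to 0.141 in knockout-line wild-type brainstem. In cortex, wild-type libraries held at most 0.0869 CPM of Hcrt except knockout-line wild type 2, which held 0.922 together with the highest cortical level of the hypothalamic peptide gene Pmch, 1.78. Regional markers separated the tissues, with cortical genes such as Tbr1 summing to 1584 to 1761 CPM in cortex and brainstem genes such as Slc6a5 and Hoxb5 to 471 to 657 CPM in brainstem. The cortical genes also summed to 142 to 203 CPM in brainstem. In 4 hypothalamus libraries pituitary or nasal transcripts stood out. Gh reached 22200, 11700 and 16300 CPM in ataxin-3-line wild types 1 and 3 and knockout-line wild type 3, and Bpifa1 725 CPM in ataxin-3 transgenic 1, against at most 17.6 and 11.5 CPM in the rest. Cortical genes summed to 130.3 and 100.4 CPM in hypothalamus knockout-line wild types 1 and 3, against 7.86 to 19.0 in the other 10 hypothalamus libraries. Values of Hbb-bs without the 4 libraries holding pituitary or nasal transcripts stand beside the hypothalamus results. Levels of genes of developing red cells differed widely: Gata1 had 0 to 3 counts per library and Klf1 1 to 8, while Tal1 had 32 to 306 and Epor 22 to 253. The embryonic globins Hbb-bh1 and Hba-x were at 0 counts in every library, which leaves room for up to 3 counts. Hbb-y, another embryonic globin, had 24 counts in brainstem ataxin-3 transgenic 3 and 0 to 3 in every other library.

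**Figure D1:**
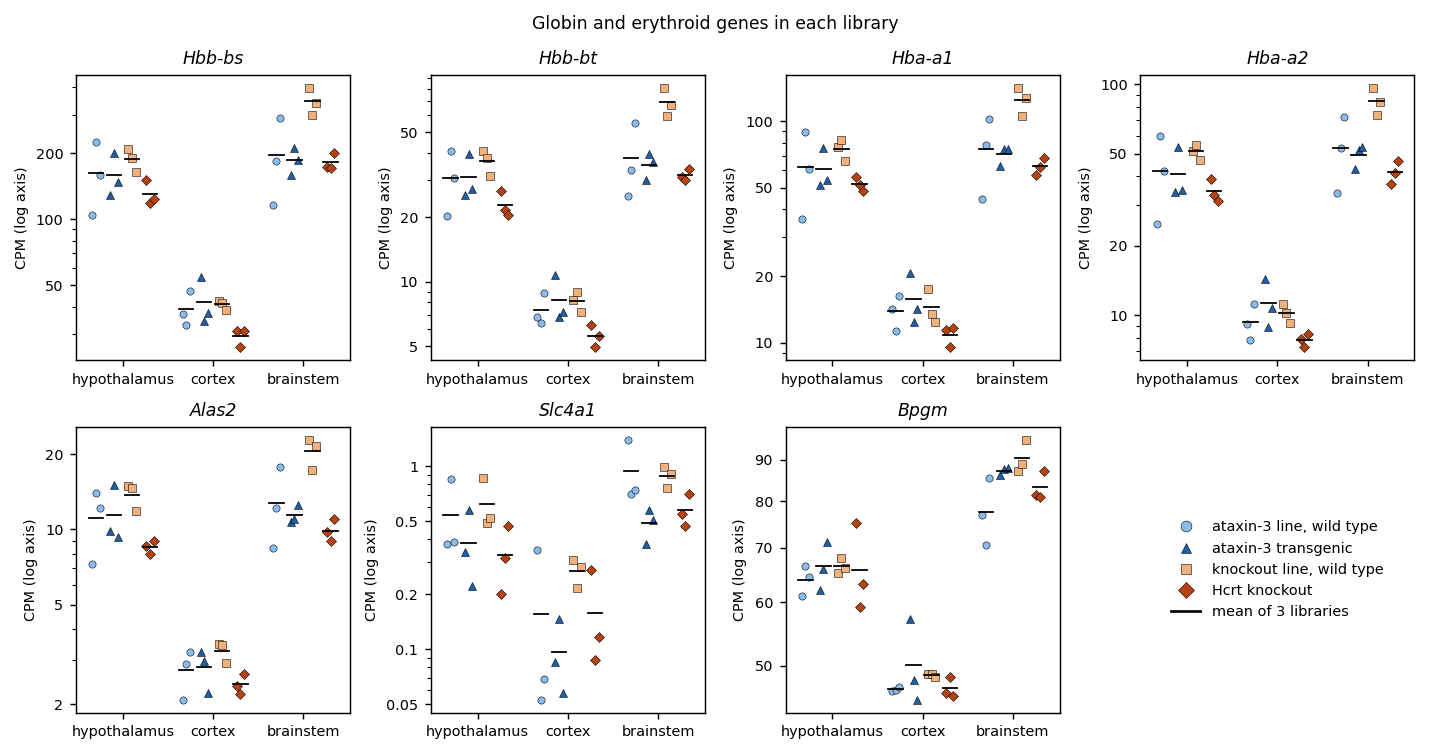
Level of each gene in CPM (log axis, a scale of its own for each gene) in the 3 libraries of each genotype, by tissue; each point is 1 library and each bar the mean of 3. The 4 globins and Alas2 were lowest in cortex, and in the 4 globins the knockout-line wild types stood highest in brainstem.

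Across wild-type tissues all 7 genes were higher in hypothalamus than in cortex, and higher in brainstem than in cortex. Hbb-bs, the major beta globin, ranged in wild-type cortex from 32.9 to 47.0 CPM with a median of 40.1. In wild-type hypothalamus it ranged from 105 to 225 CPM with a median of 178. In wild-type brainstem it ranged from 116 to 399 CPM with a median of 295. No cortex library came near the other tissues, while hypothalamus and brainstem overlapped. The ratio of hypothalamus to cortex was 4.38 (log2 fold change 2.13 ± 0.19, SE, n = 6 and 6, edgeR quasi-likelihood adjusted p = 8.6e-11). The cortex to brainstem difference was -2.71 ± 0.19, which includes the knockout-line brainstem wild types on which the genes were chosen. Within the ataxin-3 line alone it was -2.34 ± 0.27 (edgeR adjusted p = 1.76e-08).

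Hbb-bt, the minor beta globin in these counts, had medians of 7.72, 34.6 and 57.4 CPM in wild-type cortex, hypothalamus and brainstem. Hba-a1 had 13.9, 71.4 and 104 CPM and Hba-a2 9.74, 49.5 and 72.8 CPM in the same order. The alpha and beta chains thus stood in the same order of tissues. Hypothalamus exceeded cortex by 2.11 ± 0.18 on the log2 scale in Hbb-bt, 2.27 ± 0.19 in Hba-a1 and 2.25 ± 0.19 in Hba-a2. Cortex minus brainstem was -2.73 ± 0.18, -2.77 ± 0.20 and -2.77 ± 0.19 (each SE, n = 6 and 6). The 4 globins summed to 71.8 ± 9.09 CPM in wild-type cortex, 325 ± 81.4 in hypothalamus and 494 ± 181 in brainstem (SD, n = 6), so brainstem was the most variable as well as the highest.

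Alas2 followed the globins at a lower level, with wild-type medians of 3.07 CPM in cortex, 13.1 in hypothalamus and 17.5 in brainstem. Its difference between hypothalamus and cortex was 2.05 ± 0.17 and between cortex and brainstem -2.44 ± 0.17. Slc4a1 was near the limit of detection, at a median of 0.248 CPM in cortex, 0.504 in hypothalamus and 0.831 in brainstem, with 2 to 36 counts per library over the whole series. Its differences were 1.52 ± 0.34 and -2.17 ± 0.33. Bpgm behaved apart from the others, with medians of 47.8, 65.7 and 86.4 CPM, and differences of 0.45 ± 0.05 and -0.81 ± 0.05. Per kilobase of exon, the mean wild-type level in brainstem was 354 ± 135 RPKM for Hbb-bs, 23.4 ± 2.47 for Bpgm, 6.93 ± 2.29 for Alas2 and 0.187 ± 0.0529 for Slc4a1 (SD, n = 6), which is CPM per kilobase, with the limit on globin counts given above.

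All 7 genes were called higher in hypothalamus than in cortex, where 75.9% of 17744 genes tested were called, and all 7 were called lower in cortex than in brainstem, where 78.6% were called. With so many genes called between brain regions, the counts are near the background. The medians were 2.11 and -2.71 on the log2 scale, against 0.03 and -0.02 over all genes, which went both ways. The brainstem values include the knockout-line wild types on which the genes were chosen: cortex minus brainstem in Hbb-bs was -2.34 ± 0.27 within the ataxin-3 line and -3.08 ± 0.27 within the knockout line. Both counts stayed at 7 within either line alone. Cortex libraries held 10.6 to 13.9% of reads in no gene feature, against 6.05 to 7.25% in hypothalamus. The part of such reads in the tissue differences was not tested. Between hypothalamus and brainstem all 7 were called lower in hypothalamus, by a median of -0.52, with 68.2% of genes called. That count fell to 3 when only the 12 libraries compared were fitted, to 1 without the hypothalamus libraries holding pituitary transcripts, and to 1 within the ataxin-3 line, Bpgm being the gene that passed in both of the last. The knockout-line brainstem wild types were used in choosing the genes, and these were the high ones. Hbb-bs, at -0.58 ± 0.18 with adjusted p = 0.0059 over all wild types, was -0.28 with adjusted p = 0.367 within the ataxin-3 line. Wild types 1 and 2 of that line were the brainstem libraries with more reads in no gene feature, named above.

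Vessel genes were ordered differently from the globins across regions. Of all genes tested, 75.9% were called between hypothalamus and cortex and 78.6% between cortex and brainstem. A count of list genes called is therefore no signal by itself. All 8 endothelial genes tested, among them Slco1a4 (log2 fold change -1.02 ± 0.07) and Flt1, a VEGF receptor (-0.93 ± 0.07), were called lower in hypothalamus than in cortex, with a median of -0.49. Between cortex and brainstem 2 of 8 were called, both lower in cortex, with a median of -0.10. The 8 genes summed to 271 to 305 CPM in wild-type cortex, 287 to 330 in wild-type brainstem and 163 to 188 in wild-type hypothalamus, while the globins differed several-fold in the other order between cortex and hypothalamus. Granulocyte genes, markers of another blood cell, were called higher in hypothalamus than in cortex for 4 of 7, Lcn2 by 3.28 ± 0.68 and S100a9 by 1.22 ± 0.48, and lower in cortex than in brainstem for 4 of 7, S100a9 by -2.31 ± 0.46. Platelet genes were split, 1 called higher and 1 lower between hypothalamus and cortex. Choroid plexus genes were far above the rest in brainstem, with all 6 called lower in cortex by a median of -4.42; Ttr averaged 2270 CPM in brainstem, 32.7 in cortex and 1.28 in hypothalamus. Between hypothalamus and cortex 3 of the 6 were called higher and 2 lower, and their part in the globin levels was not tested. Meningeal genes were called higher in hypothalamus than cortex for 4 of 6, with a median of 0.71, and their part was not tested either.

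**Figure D2:**
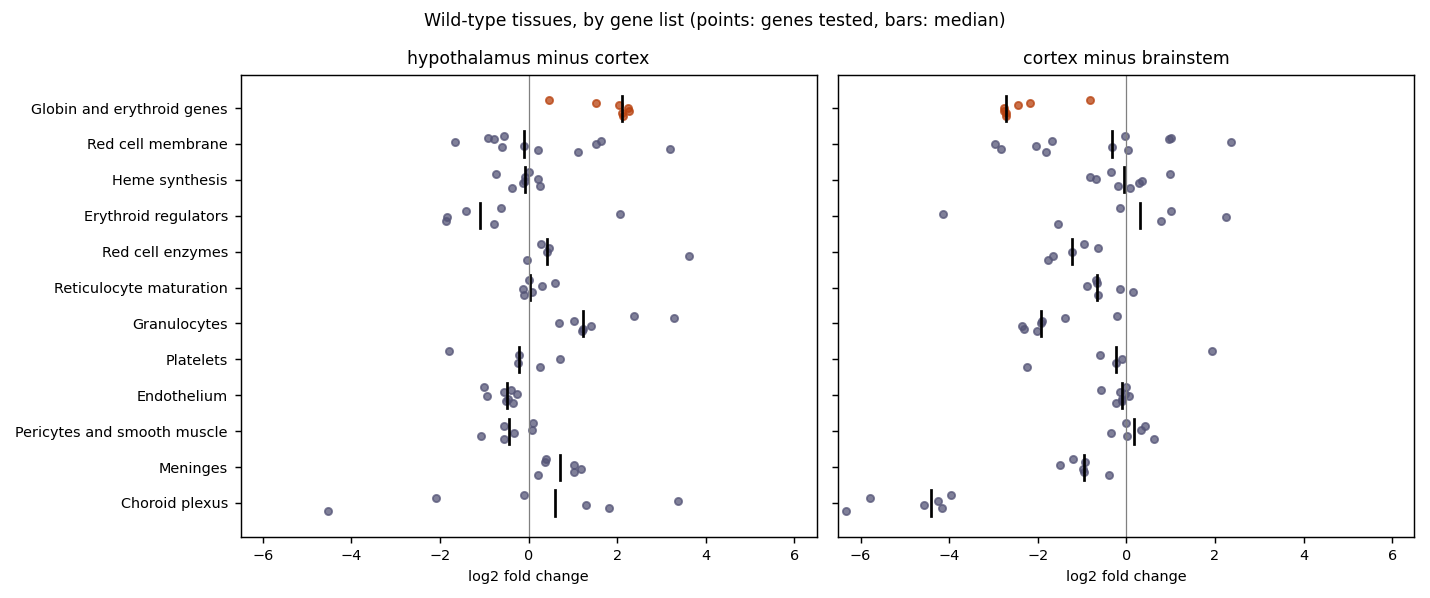
log2 fold change of each gene tested, by list, between wild-type hypothalamus and cortex (left) and between wild-type cortex and brainstem (right); black bars are medians. The globin and erythroid genes lie at medians of 2.11 and -2.71, and the endothelial genes at -0.49 and -0.10.

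Other genes of red cell biology were called in both directions between hypothalamus and cortex, where 75.9% of all genes tested were called. Of 8 further heme synthesis genes, 2 were called higher and 2 lower in hypothalamus than in cortex, with a median of -0.08; Alad, the next enzyme after ALA synthase, was 0.26 ± 0.07 higher and Alas1, the housekeeping ALA synthase, was lower by -0.39 ± 0.07. Of 11 red cell membrane genes tested, 4 were called higher and 5 lower. Among regulators and iron genes 1 of 6 was called higher, Trim58, a ubiquitin ligase of late erythroid cells, by 2.06 ± 0.39, and 5 lower, including the erythropoietin receptor gene Epor by -1.85 ± 0.14. Ube2l6, a ubiquitin-conjugating enzyme gene placed in the list of reticulocyte maturation, was 0.59 ± 0.11 higher.

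In the brainstem of Hcrt knockout mice the 7 genes were chosen for being low, and the values below describe that choice. Hbb-bs was at 174, 171 and 201 CPM in the knockouts and at 399, 300 and 339 in their wild types, a level 0.526 times as high (log2 fold change -0.93 ± 0.30, SE, n = 3 and 3). Hbb-bt was at 31.1, 30.0 and 33.7 CPM against 81.0, 59.7 and 66.8 (-1.13 ± 0.27). The highest knockout library lay below the lowest wild type in both. Hba-a1 was at 57.3, 62.3 and 68.3 CPM against 142, 105 and 127 (-0.99 ± 0.27). Hba-a2 was at 37.0, 41.4 and 46.5 CPM against 96.9, 73.7 and 83.8 (-1.03 ± 0.25). The alpha chains were thus at about the same fraction of wild type as the beta chains, 0.503 and 0.491 against 0.526 and 0.456. Alas2 was at 9.77, 8.97 and 10.95 CPM against 22.8, 17.3 and 21.5 (-1.05 ± 0.23). Slc4a1 was at 0.550, 0.470 and 0.707 CPM against 0.986, 0.761 and 0.901 (-0.61 ± 0.28). Bpgm was at 81.5, 81.1 and 87.1 CPM against 87.2, 88.8 and 95.3 (-0.12 ± 0.07), the smallest difference of the 7. All 7 had every knockout library below every wild type, where 4.69% of 16493 genes did; nothing is read from this count, since the genes were chosen on it.

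The brainstem libraries of the ataxin-3 line place these values. Hbb-bs was at 116, 184.8 and 290 CPM in the ataxin-3-line wild types and at 159, 211 and 187 in the transgenic mice. The 3 knockout libraries, at 171 to 201 CPM, lay inside that range, and so they did for each of the 7 genes. The knockout-line wild types, at 300 to 399 CPM, lay above all 9 other brainstem libraries. Compared with the ataxin-3-line wild types they were higher by 0.82 ± 0.30 in Hbb-bs, by 0.86 ± 0.26 in Hbb-bt, by 0.73 ± 0.27 in Hba-a1 and by 0.68 ± 0.25 in Hba-a2, without overlap, again with no test because the genes were chosen on these libraries. Alas2 was higher by 0.68 ± 0.22 and Slc4a1 was at -0.09 ± 0.27, both with overlap. Bpgm was higher by 0.23 ± 0.07 without overlap. Within the ataxin-3-line wild types alone, the summed globins ran from 219.5 to 520 CPM. The knockout level was thus low against wild types of its own line and lay inside the range of the ataxin-3 line. Wild types 1 and 2 of that line, which held more reads in no gene feature, had summed globins of 219.5 and 349.4 CPM. Wild type 3 had 520 CPM, near the lowest knockout-line wild type at 538.9, and the transgenic libraries had 294.7 to 377.0. The part of such reads in the globin levels was not tested.

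The hypothalamus libraries did not enter the choice. They may still not be independent of it, since globin deviations from group means in same-numbered hypothalamus and brainstem libraries correlated at r = 0.512 (Spearman 0.364, n = 12). Ataxin-3-line wild type 1 was lowest in both, at -0.615 and -0.606. Knockouts 1, 2 and 3 were at 0.183, -0.066 and -0.117 in hypothalamus and at -0.093, -0.041 and 0.134 in brainstem. Their wild types were at 0.091, 0.081 and -0.172 in hypothalamus and at 0.213, -0.206 and -0.007 in brainstem. In hypothalamus the globins were again lower in knockouts than in their wild types but did not pass the test. Hbb-bs was at 151, 119 and 123 CPM in the knockouts and at 209, 191 and 165 in the wild types (-0.52 ± 0.25, edgeR adjusted p = 0.81). Hbb-bt was at 26.7, 21.6 and 20.5 CPM against 40.8, 37.8 and 31.3 (-0.67 ± 0.24). Neither gene's groups overlapped. Hba-a1 was at 56.3, 51.8 and 48.7 CPM against 76.3, 82.6 and 66.5 (-0.52 ± 0.26). Hba-a2 was at 39.1, 33.3 and 31.1 CPM against 51.6, 54.9 and 47.3 (-0.57 ± 0.28). Alas2, the heme synthesis gene, was at 8.59, 8.002 and 8.99 CPM against 14.9, 14.6 and 11.8 (-0.69 ± 0.23, unadjusted p = 0.0111 from edgeR). Slc4a1 was at 0.201, 0.316 and 0.469 CPM against 0.865, 0.488 and 0.520 (-0.91 ± 0.46, and -1.24 to -0.60 on leaving out 1 library), from 6 to 34 counts. Bpgm overlapped, at 75.2, 59.1 and 63.1 CPM against 65.2, 68.1 and 66.1 (-0.01 ± 0.09).

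With edgeR 0 of the 7 were called in hypothalamus, where 0.0119% of 16738 genes were called; DESeq2 and limma voom also called 0, and 2 had an unadjusted p under 0.05, as did 3.89% of all genes. All 7 estimates were below 0, with a median of -0.57 against 0.01 over all genes. In 6 of the 7 every knockout library lay below every wild type, where 3.28% of genes did. The globins and Alas2 moved together between libraries, as given further on, so these genes are not separate results. Without the 4 libraries holding pituitary or nasal transcripts, which leaves 2 wild types, Hbb-bs was at -0.62 ± 0.15 and Alas2 at -0.80 ± 0.19, with adjusted p = 0.985 for both. Without wild type 1, one of the pair with cortical transcripts, Hbb-bs was at -0.43, and without wild type 3, the other, at -0.62. The knockout libraries lay inside the range of the ataxin-3 line here too, with summed globins of 223.7 to 272.8 CPM against 186.3 to 414.9.

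In cortex the level was lowest and the libraries closest together, and 6 of the 7 genes could be tested, Slc4a1 having too few counts. Hbb-bs was at 31.0, 26.1 and 30.9 CPM in knockouts and at 42.7, 41.5 and 38.7 in wild types (-0.48 ± 0.17, edgeR adjusted p = 1, unadjusted p = 0.0155). Hbb-bt was at 6.26, 4.93 and 5.56 CPM against 8.23, 8.94 and 7.20 (-0.52 ± 0.18). The groups did not overlap in either. Hba-a1 was at 11.4, 9.55 and 11.7 CPM against 17.5, 13.5 and 12.46 (-0.40 ± 0.19). Hba-a2 was at 7.94, 7.26 and 8.32 CPM against 11.2, 10.3 and 9.22 (-0.38 ± 0.16). Alas2 was at 2.36, 2.20 and 2.64 CPM against 3.48, 3.44 and 2.91 (-0.44 ± 0.18). These 5 genes were each separated between the groups, at 0.696 to 0.769 times the wild-type level. Bpgm was at 46.3, 48.5 and 45.9 CPM against 48.9, 48.8 and 48.5 (-0.06 ± 0.07). Slc4a1 was at 0.270, 0.0880 and 0.117 CPM against 0.307, 0.215 and 0.281, with overlap.

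Of the 6 genes tested in cortex edgeR called 0, against 0.0789% of 16479 genes; DESeq2 and limma voom called 0, and 4 had an unadjusted p under 0.05, as did 3.3% of all genes. All 6 had every knockout library below every wild type, where 5.63% of genes did, and the median was -0.42 against -0.00 over all genes. Here too the globins moved together between libraries and are not separate results. When only the 6 libraries compared were fitted, Hbb-bs passed with adjusted p = 0.00449 and the same estimate of -0.48, on a smaller standard error of 0.07; the other 5 did not. The summed globins of the knockout cortex, 47.8 to 56.6 CPM, also lay below all 6 libraries of the ataxin-3 line, at 58.5 to 100.4 CPM. Both beta globins did so singly, while 1 of 3 knockout libraries did in Hba-a1 and in Hba-a2, and all 3 lay inside the ataxin-3-line range in Alas2. Without knockout-line wild type 2, which held Hcrt and Pmch transcripts, Hbb-bs was at -0.47.

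In the ataxin-3 transgenic mice the globins and Alas2 overlapped with their wild types in every tissue. In hypothalamus Hbb-bs was at 129, 202 and 148 CPM in transgenic libraries and 105, 225 and 159 in wild types, a difference of -0.03 ± 0.25, which became -0.37 ± 0.21 (edgeR adjusted p = 1) without the 4 libraries holding pituitary or nasal transcripts. That leaves 2 transgenic libraries and 1 wild type, whose spread is taken to be that of the other groups. In cortex it was at 54.7, 34.4 and 37.5 CPM against 37.2, 32.9 and 47.0 (0.12 ± 0.16). In brainstem it was at 159, 211 and 187 CPM against 116, 184.8 and 290 (-0.09 ± 0.30). The groups overlapped in all 3 tissues, and the sign changed with single libraries. With edgeR 0 of 7 genes were called in hypothalamus (0.00597% of genes called), 0 of 6 in cortex (0% called) and 0 of 7 in brainstem (0.00606% called); DESeq2 and limma voom called 0 in each, and 0, 0 and 2 of these genes had an unadjusted p under 0.05, as did 4.16, 5.09 and 8.35% of all genes. The medians were -0.03, 0.14 and -0.10.

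The 2 with a low unadjusted p in brainstem were Slc4a1 and Bpgm. Slc4a1 was at 0.378, 0.575 and 0.509 CPM in transgenic libraries and at 1.39, 0.701 and 0.739 in wild types (-0.94 ± 0.29, edgeR adjusted p = 0.54), and the difference was -0.56 without ataxin-3-line wild type 1. Bpgm was at 86.3, 87.6 and 87.99 CPM against 77.0, 70.6 and 85.5 (0.17 ± 0.07, adjusted p = 0.55). Neither overlapped. Without ataxin-3-line wild type 3, Bpgm passed the test with adjusted p = 0.0367 at 0.25. That fit left wild types 1 and 2, at 77.0 and 70.6 CPM, the libraries with 10.1 and 15.2% of reads in no gene feature. The wild type left out, at 85.5 CPM, lay nearest the transgenic libraries.

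**Figure D3:**
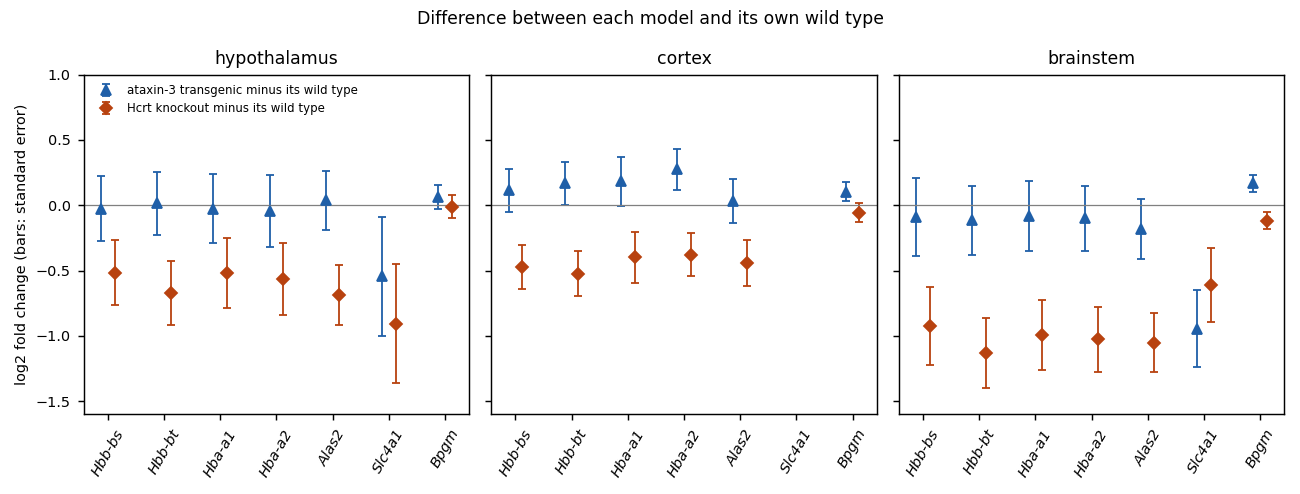
log2 fold change with its standard error of each gene in ataxin-3 transgenic (blue triangles) and Hcrt knockout mice (red diamonds), each against wild types of its line, in 3 tissues; Slc4a1 was not tested in cortex. The globins and Alas2 lie below 0 in knockouts of all 3 tissues, from -0.38 to -1.13, and near 0 in transgenic mice, from -0.18 to 0.28.

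The models were compared by the difference of their differences, within the fit of each tissue. For the globins and Alas2 the ataxin-3 difference exceeded the knockout difference by 0.49 to 0.72 in hypothalamus and by 0.47 to 0.69 in cortex, and none passed the test. In hypothalamus Alas2 was largest, at 0.72 ± 0.32 (edgeR adjusted p = 0.98), and Hbb-bs was at 0.49 ± 0.35. Hbb-bs was at 0.25 ± 0.26 without the 4 libraries holding pituitary or nasal transcripts, and from 0.26 (without ataxin-3-line wild type 1) to 0.79 (without ataxin-3-line wild type 2) on leaving out 1 library. In cortex Hbb-bt was largest, at 0.69 ± 0.24 (adjusted p = 0.93), and Hbb-bs was at 0.59 ± 0.24. With edgeR 0 members were called in either tissue, where 0% and 0.0243% of genes were called; DESeq2 and limma voom also called 0, and 1 and 3 members had an unadjusted p under 0.05, as did 2.26 and 3.13% of all genes. The lower level in knockouts is thus not shown to differ from the transgenic mice in these tissues. In brainstem the same difference was 0.84 ± 0.42 for Hbb-bs and 0.87 ± 0.32 for Alas2, without a test.

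The 2 lines' wild types were also compared, since the models have different controls. In hypothalamus the knockout-line wild types were higher in all 7 genes by a median of 0.26 and in cortex in 6 of 6 by a median of 0.09. Hbb-bs differed by 0.21 ± 0.25 in hypothalamus and by 0.07 ± 0.16 in cortex. In hypothalamus its direction turned to -0.17 without the libraries holding pituitary or nasal transcripts and to -0.03 without ataxin-3-line wild type 1, and in cortex to -0.04 without ataxin-3-line wild type 2. With edgeR 0 members were called in either (0% of genes called in each); DESeq2 and limma voom called 0, and 0 members had an unadjusted p under 0.05.

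The split of beta globin counts between the gene pair differed from the level. Over all 36 libraries Hbb-bt made up 16.0 ± 0.779% of beta globin counts (SD), from 14.3 to 17.9%. In hypothalamus it was 15.1, 15.3 and 14.3% in knockouts and 16.3, 16.5 and 16.0% in their wild types, means of 14.9 ± 0.553% and 16.3 ± 0.276% (SD, n = 3). In brainstem it was 15.2, 14.9 and 14.3% against 16.9, 16.6 and 16.4%, means of 14.8 ± 0.421% and 16.6 ± 0.226%. The knockouts were lower without overlap in both tissues, with differences of -1.39 and -1.84 percentage points. In cortex the shares overlapped, at 16.8, 15.9 and 15.2% against 16.2, 17.7 and 15.7%. There the counts were fewest, with 95% Wilson intervals 3.77 to 5.40 points wide in the knockouts, so a difference of the size seen in the other tissues was not detectable library by library. In hypothalamus the knockout intervals were 1.93 to 1.96 points wide from end to end, for single libraries, while the difference there is between means of 3. Intervals of single libraries overlapped between the groups except for knockout 3. Its interval of 13.32 to 15.27% lay below those of wild types 1 and 2, at 15.59 to 17.05% and 15.77 to 17.31%. In the ataxin-3 line the shares of transgenic and wild-type libraries overlapped in all 3 tissues. These shares were not tested, the brainstem values come from libraries on which the genes were chosen, and intervals cover counting error alone, since reads carry no molecular identifiers.

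**Figure D4:**
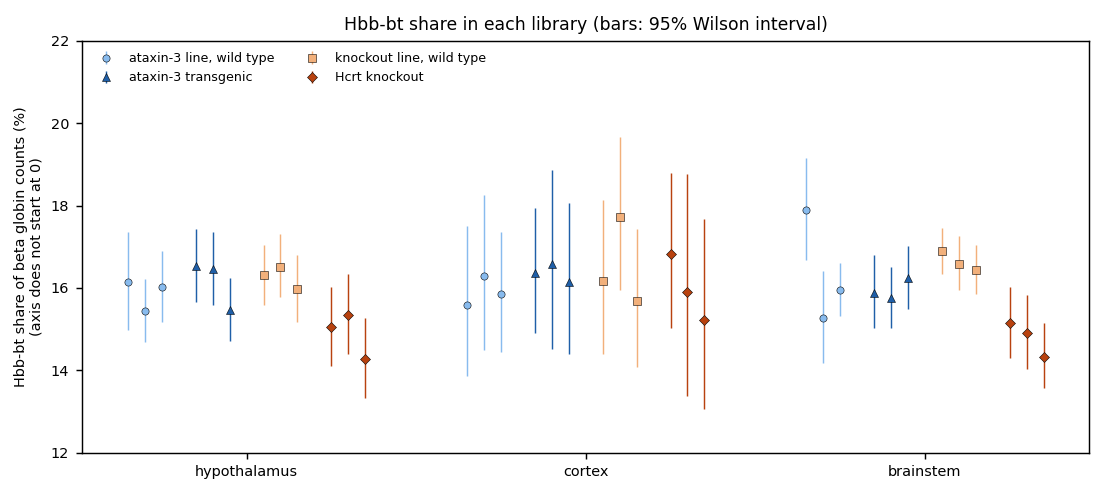
Share of Hbb-bt in the sum of Hbb-bs and Hbb-bt counts in each library (percent, axis not starting at 0), with 95% Wilson intervals from counting error, by tissue and genotype. Knockout libraries lie at 14.3 to 15.3% in hypothalamus and 14.3 to 15.2% in brainstem, below their wild types at 16.0 to 16.5% and 16.4 to 16.9%.

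Other ratios within hemoglobin production mostly overlapped between each model and its wild types. Beta over alpha globin counts was 1.89 ± 0.134 over all 36 libraries (SD), from 1.65 to 2.17, and knockouts and their wild types overlapped in every tissue. Hba-a1 made up 59.2 ± 1.2% of alpha globin counts, from 56.8 to 61.0%. It was lower without overlap in ataxin-3 transgenic cortex, 58.0 ± 1.02% against 59.7 ± 0.975%, and overlapped in the other 5 comparisons of a model with its wild type. Alas2 stood at 33.4 ± 2.79 counts per 1000 globin counts in brainstem, 38.0 ± 3.27 in hypothalamus and 41.6 ± 6.56 in cortex (SD, n = 12), and overlapped between each model and its wild type. The ratio of Alas2 to the globins was not tested, and it does not show that their level was low in knockouts.

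The same 5 genes moved together from library to library within a tissue. Over the 12 libraries of a tissue, Pearson's r of log2 CPM between 2 globins was 0.965 to 0.993 in brainstem, 0.944 to 0.991 in hypothalamus and 0.899 to 0.976 in cortex. Alas2 correlated with the globins at 0.921 to 0.953 in hypothalamus, 0.953 to 0.981 in brainstem and 0.529 to 0.686 in cortex, where it had the fewest counts. Bpgm stood lower, at 0.366 to 0.646 over the 3 tissues. Slc4a1 was at 0.636 to 0.655 in hypothalamus, 0.215 to 0.333 in brainstem and -0.07 to 0.04 in cortex, from few counts. These libraries share genotype groups and scaling, and the values are descriptions without a test.

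Of 15540 genes tested in every tissue, the non-member most like the globins was Ube2l6, with a mean r of 0.744 over the 3 tissues with the mean of the 4 globins (12 libraries each), and 0.713 after group means were subtracted. It was at 4.95 CPM in knockout and 7.26 CPM in wild-type brainstem, a log2 fold change of -0.55 ± 0.14. The next were Rab5c (0.701), Lcat (0.674), Eva1a (0.662), Pex19 (0.651), Tubg2 (0.639), Tubb2b (0.638), Coa3 (0.630), Fgfrl1 (0.630) and Cx3cr1 (0.624). By the same measure Alas2 stood at 0.847 and Bpgm at 0.534. This ranking includes the brainstem libraries on which the genes were chosen. After group means were subtracted Rab5c was at 0.596, Tubg2 at 0.614, Coa3 at 0.607 and Fgfrl1 at 0.230. Rab5c, Tubg2 and Coa3, 3 of these 10 genes, lie within 1 Mb of Hcrt, as do 59 of the 15540 genes compared. The highest after subtraction were Ttyh1 (0.786), Pglyrp1, a granulocyte peptidoglycan recognition protein gene (0.749), Pdzd4 (0.746), Elp5 (0.736) and AW047730 (0.731).

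Most other erythroid lists held genes on both sides of wild type in knockouts. Of 8 further heme synthesis genes 2 were lower in hypothalamus, 4 in cortex and 4 in brainstem, with medians of 0.07, -0.00 and -0.00. Red cell membrane genes were lower in 6 of 10, 6 of 8 and 4 of 10, with medians of -0.11, -0.01 and 0.04. Reticulocyte maturation genes were lower in 2, 3 and 3 of 6, with medians of 0.02, -0.01 and -0.01. Red cell enzyme genes were higher in 5 of 5 in hypothalamus and lower in 4 of 4 in cortex and 4 of 4 in brainstem, with medians of 0.10, -0.03 and -0.05. Regulators and iron uptake genes were lower in 5 of 6, 3 of 5 and 3 of 6; the smallest p in hypothalamus was that of Trim58, at -1.04 ± 0.46 (edgeR adjusted p = 0.81) from 0.244 CPM. Over all erythroid lists edgeR called 0 of 36 genes in hypothalamus and 0 of 31 in cortex, where 2 and 0 had an unadjusted p under 0.05. The minor alpha-like globin gene Hbq1a lay above wild type in hypothalamus, at 0.669 CPM in knockouts and 0.421 in wild types (0.66 ± 0.24, adjusted p = 0.81). Tfrc, the transferrin receptor gene, was at 113 CPM in knockout and 121 in wild-type hypothalamus.

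Markers of other blood and vessel cells were examined beside the knockout values. Granulocyte genes were lower in 5 of 6 tested in hypothalamus (median -0.33), and in 5 of 5 in brainstem (median -0.38); Lcn2 was at 0.399 CPM in knockout and 0.623 in wild-type brainstem. Their summed level was 2.52 to 3.48 CPM in knockout and 3.19 to 4.25 CPM in wild-type brainstem. Platelet genes were lower in 4 of 5 in brainstem, with a median of -0.08. Endothelial genes were lower in 7 of 8 in brainstem with a median of -0.09, summing to 271 to 294 CPM against 287 to 309, and in 4 of 8 in hypothalamus and 6 of 8 in cortex with medians of -0.03 and -0.04. Choroid plexus genes were lower in 6 of 6 in brainstem (median -0.23) and higher in 6 of 6 in cortex (median 0.28), where the globins were low as well; Ttr was at 34.6 CPM in knockout and 16.0 in wild-type cortex. Pericyte and meningeal genes had medians from -0.19 to -0.01. Of these lists edgeR called 0 of 37 genes in hypothalamus and 0 of 31 in cortex, with 1 in each at an unadjusted p under 0.05, and the part of blood, vessel or choroid plexus content in the globin values was not tested.

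**Figure D5:**
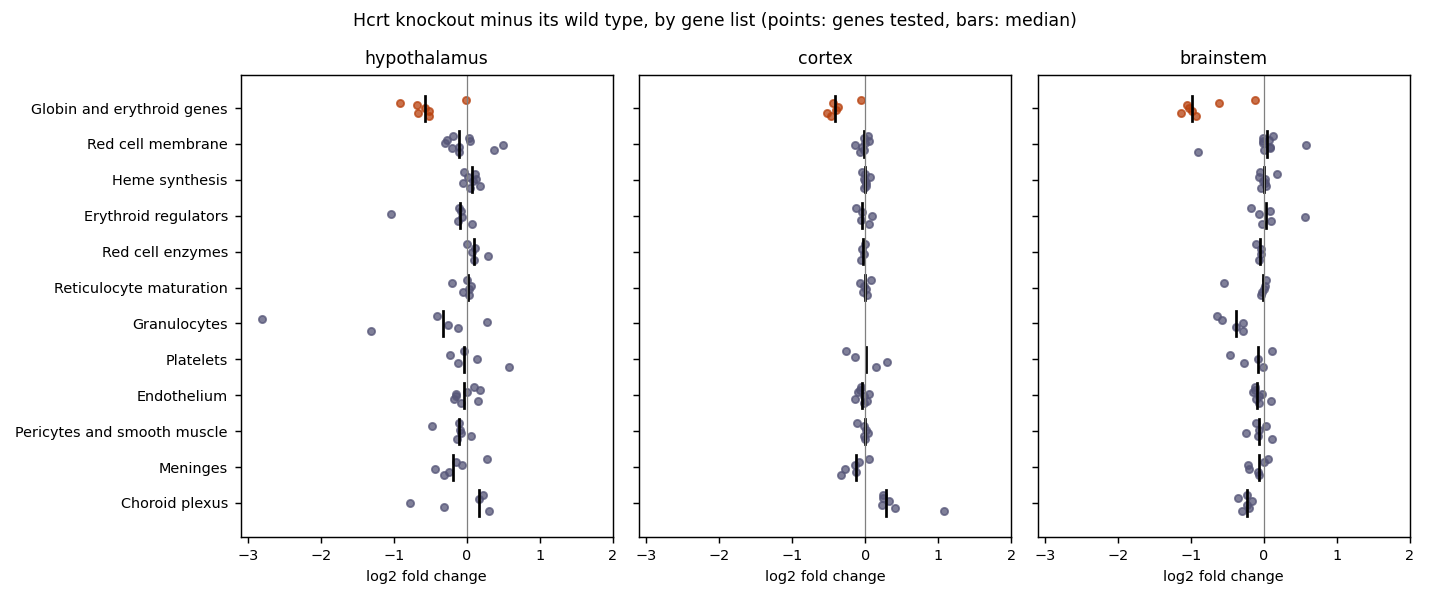
log2 fold change of each gene tested, by list, in Hcrt knockout against wild-type hypothalamus, cortex and brainstem; black bars are medians. The globin and erythroid genes lie at medians of -0.57, -0.42 and -0.99, and those of heme synthesis and reticulocyte maturation within 0.07 of 0.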

How the data were processed

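RNeasy Lipid Tissue Midi columns gave total RNA, and libraries were made from 500 ng with Illumina TruSeq Stranded mRNA reagents, per the labels' protocols. The authors deposited raw counts per Ensembl gene for each of 36 libraries. Per the submitters' processing notes, cutadapt 1.2.1, TopHat2 2.0.9, HTSeq 0.5.4p3 and build GRCm38 were used; strand setting, overlap mode, annotation release and read length: not given in the sources used here. Lines that name no gene held 24.7 to 42.0% of each file's total, of which reads with several alignments were 16.0 to 26.4% of the total, and were left out.

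Counts were fitted with edgeR 4.0.16 (R 4.3.3; TMM factors, filterByExpr, robust quasi-likelihood test, Benjamini-Hochberg over all genes tested, threshold 0.05), in 1 fit of 12 libraries per tissue, or of all 36 libraries for tissue contrasts. DESeq2 1.42.0, limma 3.58.1 voom, other scalings and filters, fits of only the groups compared, a replicate block and leaving out each library were alternatives; leaving out hypothalamus libraries with pituitary or nasal transcripts, and single lines, was added after seeing the data. The scripts were tested on simulated data. Replicate numbers were not used to pair the samples, since same-numbered libraries did not all correlate above 0.1 in any comparison over all genes. Single pairs reached 0.325 in ataxin-3 hypothalamus and 0.335 in knockout brainstem, so whether the numbers pair samples is undecided. The 7 genes and the gene lists were chosen with earlier results of these data known. Named list genes were up to 3 with the smallest p per list and those past the threshold; the genes most like the globins were the 10 with the highest mean Pearson correlation of log2 CPM with the 4 globins over 3 tissues.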

Additional observations from a re-analysis of the deposited data

Results flagged for a closer look

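The share of Hbb-bt in beta globin counts was 17.7% in cortex knockout-line wild type 2, and the nearest of the other 5 wild-type cortex libraries was at 16.3%. The gap was 0.677 of the range of the 6 libraries, above Dixon's 95% critical value of 0.625. Of 33 groups examined in this way 1 stood out, and chance alone gives about 1 in 20. The same library held Hcrt at 0.922 CPM and Pmch at 1.78 CPM, and the part of this in the share was not tested.

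Bpgm in brainstem lay above wild type in all 3 ataxin-3 transgenic libraries and below wild type in all 3 Hcrt knockout libraries. The difference of the differences was 0.29 ± 0.09 on the log2 scale and was not tested. It includes the knockout brainstem contrast on which the genes were chosen, so it is a description only. Ataxin-3-line wild types 1 and 2, at 77.0 and 70.6 CPM, were the brainstem libraries with more reads in no gene feature. Wild type 3 was at 85.5 CPM.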

How the results depend on the processing

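Of 1517 values of single genes under the alternatives, 61 changed sign, 42 of them in the ataxin-3 comparisons, and 33 lost the call, all between hypothalamus and brainstem. For Hbb-bs in ataxin-3 transgenic mice, limma voom gave 0.19 in hypothalamus (-0.37 without the libraries holding pituitary or nasal transcripts), -0.0775 in cortex and 0.13 in brainstem, and leaving out 1 library gave -0.26 to 0.28, -0.12 to 0.27 and -0.36 to 0.32. Between wild types of the lines, Hbb-bs ranged from -0.0283 to 0.508 in hypothalamus and from -0.04 to 0.23 in cortex on leaving out 1 library, and was -0.17 in hypothalamus without the libraries holding pituitary or nasal transcripts. Bpgm in knockout hypothalamus ranged from -0.132 to 0.0688. Members called in knockout cortex numbered 1 when only the groups compared were fitted. Members called in ataxin-3 brainstem were 0 to 1 on leaving out 1 library. Between wild-type hypothalamus and brainstem they were 3 with only the groups compared, 1 without the libraries holding pituitary transcripts, 1 in the ataxin-3 line alone and 4 to 7 on leaving out 1 library, with 4 without brainstem ataxin-3-line wild type 3 and 4 without hypothalamus ataxin-3-line wild type 1. The cause was not tested.

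With the replicate number as a replicate block, Hbb-bs in knockouts was -0.51 in hypothalamus (edgeR adjusted p = 0.815) and -0.49 in cortex (adjusted p = 1), and members called stayed at 0 in every genotype comparison tested and at 7 in each tissue contrast. Depth limited Slc4a1, with 2 to 36 counts per library.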
